A study of Mus musculus with 4 samples.

Results

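The transcripts of 10 enzymes of sebaceous lipid synthesis were followed in mouse back skin: Scd1, Scd3, Elovl3, Elovl6, Fa2h, Far2, Soat1, Awat2, Acoxl and Sdr16c6. They were taken by gene symbol and make up 10 of the 32285 genes in the count tables, each present in all 4 libraries. Nuclear RNA was sequenced from skin of C57BL/6 mice, an inbred strain, wild type and 8 weeks old in every group. The wounded group held 2 mice whose back skin carried an excisional wound through its full thickness and was collected 1 day later, and the unwounded group held intact back skin of 2 other mice. Each mouse gave 1 library, so differences between libraries of a group include both the animal and the preparation.

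Sebaceous glands sit beside the hair follicle and are filled by sebocytes, cells that load themselves with lipid droplets and then burst to release sebum. Mouse sebum is rich in wax esters, sterol esters and glycerides. Fatty acids are first lengthened by the Elovl elongases and given a double bond by the Scd desaturases. Far2 reduces fatty acyl-CoA to fatty alcohol, Awat2 joins fatty alcohol and acyl-CoA into wax ester, and Soat1 esterifies cholesterol. Fa2h hydroxylates fatty acids. Sdr16c6 is a short-chain dehydrogenase related to the retinol dehydrogenase Sdr16c5, and Acoxl resembles the peroxisomal acyl-CoA oxidases in sequence. Mice without Scd1 have shrunken sebaceous glands.

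The wounded libraries held 2297 and 3706 nuclei with 1189262 and 1350822 UMIs (counted molecules), and the unwounded libraries held 6575 and 9001 nuclei with 8275090 and 6475744 UMIs. A count of 0, read as at most 3 UMIs, allows up to 2.52 and 2.22 CPM (UMIs scaled to a common library total) in the wounded and 0.363 and 0.463 CPM in the unwounded libraries. Malat1, a nuclear-retained RNA, took 0.120% and 0.294% of UMIs in the wounded libraries, against 9.39% and 8.26% in the unwounded ones. Genes of 1466 olfactory and similar chemosensory receptors, which skin is not known to transcribe strongly, stood at 0.550 and 0.510 CPM per kb of gene in the wounded libraries and at 0.00738 and 0.0103 CPM per kb in the unwounded ones. That density times a gene's length is called its length-expected level here and is printed beside the wounded values. Between 3 and 27 cell barcodes of kept nuclei were shared by any pair of libraries.

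Among sebocyte-like nuclei, described further on, Scd3, Far2 and Sdr16c6 were higher in one group of nuclei and Elovl6 and Acoxl in another. The 250 bases before a listed transcription start of each of these 5 genes are shown to set the 2 sets side by side. They come from the RefSeq promoter table of GRCm38.p6, read in the direction of the gene. Scd3 lies at chr19:44203038-44203287 (plus strand), Far2 at chr6:148047166-148047415 (plus), Sdr16c6 at chr4:4077515-4077764 (minus), Elovl6 at chr3:129532136-129532385 (plus) and Acoxl at chr2:127854378-127854627 (plus). In the GENCODE annotation used for gene lengths Acoxl starts further upstream, at chr2:127838876, so its window lies inside that gene. The annotated starts of Scd3, Far2, Sdr16c6 and Elovl6 lie inside their windows, that of Far2 at chr6:148047259. Capitals mark matches on either strand to CCAAT or GGGCGG.

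Scd3: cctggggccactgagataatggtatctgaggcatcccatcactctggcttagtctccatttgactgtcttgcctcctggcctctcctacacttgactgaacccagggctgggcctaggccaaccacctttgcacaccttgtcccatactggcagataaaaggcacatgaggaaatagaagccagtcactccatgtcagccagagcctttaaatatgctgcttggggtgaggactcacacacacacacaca

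Far2: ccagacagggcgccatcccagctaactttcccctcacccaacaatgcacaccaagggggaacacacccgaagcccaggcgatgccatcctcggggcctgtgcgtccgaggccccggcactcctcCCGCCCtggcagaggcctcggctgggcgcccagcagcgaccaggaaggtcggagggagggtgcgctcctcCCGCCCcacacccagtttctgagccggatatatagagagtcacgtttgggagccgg

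Sdr16c6: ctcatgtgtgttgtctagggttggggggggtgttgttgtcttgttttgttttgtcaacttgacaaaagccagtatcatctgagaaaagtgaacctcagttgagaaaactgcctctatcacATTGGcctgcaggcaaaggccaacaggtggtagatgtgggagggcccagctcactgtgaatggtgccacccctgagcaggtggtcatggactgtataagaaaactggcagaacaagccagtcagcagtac

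Elovl6: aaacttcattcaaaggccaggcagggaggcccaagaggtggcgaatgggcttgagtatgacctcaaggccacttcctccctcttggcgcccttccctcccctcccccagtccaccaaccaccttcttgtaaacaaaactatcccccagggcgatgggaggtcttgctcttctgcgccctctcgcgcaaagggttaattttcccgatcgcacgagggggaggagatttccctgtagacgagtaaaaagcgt

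Acoxl: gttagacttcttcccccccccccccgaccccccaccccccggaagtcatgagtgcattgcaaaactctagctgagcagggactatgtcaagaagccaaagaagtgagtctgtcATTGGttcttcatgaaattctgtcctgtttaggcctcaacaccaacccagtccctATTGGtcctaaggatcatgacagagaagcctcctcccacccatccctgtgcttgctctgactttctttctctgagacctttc

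Far2 carried 2 copies of GGGCGG on the opposite strand, Acoxl 2 copies of CCAAT on the opposite strand and Sdr16c6 1. Both Far2 copies lie past its annotated start, inside the gene. Also searched were the sterol response letters TCACNCCAC, the E box letters CACGTG, and, for the TATA box, TATAAA. None of these lay in the 250-base windows of the 7 enzymes with an entry. CCAAT was present in 33.9% of the 32851 promoters in the table and GGGCGG in 32.7%, so both matches were common letters. No motif was shared within 1 set and missing from the other.

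In intact skin the enzyme transcripts were concentrated in a small class of nuclei but not confined to it. Nuclei of all libraries were clustered with the 10 enzymes held out, and 1 class was called sebocyte-like because all 12 sebocyte markers, among them the lipid droplet gene Cidea, the melanocortin receptor Mc5r and the gland duct keratin Krt79, were at least 2-fold above the other nuclei. It held 109 of 6575 nuclei (1.66%) and 158 of 9001 nuclei (1.76%) in the unwounded libraries. The size of the class depended on the processing: these 267 nuclei were 608 with doublets kept and 419 with the enzymes among the clustering genes. These nuclei carried 2.61% and 2.94% of all UMIs and 61.1% and 46.6% of the UMIs of the 10 enzymes. Enzyme transcripts were 2.25% and 1.86% of the UMIs in sebocyte-like nuclei, against 0.0383% and 0.0647% in all other unwounded nuclei. The 10 adipocyte markers summed to 209 and 137 CPM in sebocyte-like nuclei, against 292 and 320 CPM in all nuclei of the same libraries, with 7 and 6 of them detected. Retn (2.74-fold) and Plin4 (1.51-fold) in replicate 1 and Pnpla2 (1.61-fold) in replicate 2 lay above the other nuclei. Adipoq and Lep had no UMI in sebocyte-like nuclei, but their levels in the other nuclei, at most 8.07 CPM, were too low for an absence to be seen at this depth. Clusters were compared as a description, with no test.

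All 10 enzymes were highest in sebocyte-like nuclei among the 13 classes with at least 50 nuclei in each unwounded library. Fa2h and Far2 stood furthest above the next class, Fa2h by 42.6-fold and 24.9-fold and Far2 by 26.6-fold and 26.1-fold. Fa2h had 3112 and 2414 CPM in sebocyte-like nuclei, against 73.0 and 96.8 CPM in the next class, keratinocyte-like nuclei led by the envelope gene Lor. Far2 reached 4165 and 4460 CPM against 157 and 171 CPM in mast cell-like nuclei. Elovl6, which extends palmitate to stearate length, had the most UMIs, at 6006 and 4465 CPM, against 291 and 287 CPM in Skint5-led keratinocyte-like nuclei.

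Scd3 followed with 2300 and 1862 CPM in sebocyte-like nuclei, against at most 136 and 97.9 CPM in any other class. Soat1 had 1605 and 2256 CPM there, against at most 80.9 and 107 CPM elsewhere. Sdr16c6 had 1739 and 1289 CPM, against at most 118 and 121 CPM elsewhere. For each of these enzymes the sebocyte-like level lay above the next class by more than 10-fold in both libraries. Acoxl differed most between the mice, at 2764 and 1068 CPM in sebocyte-like nuclei, and its next class was again Skint5-led keratinocyte-like nuclei, with 200 and 104 CPM.

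**Figure D1:**
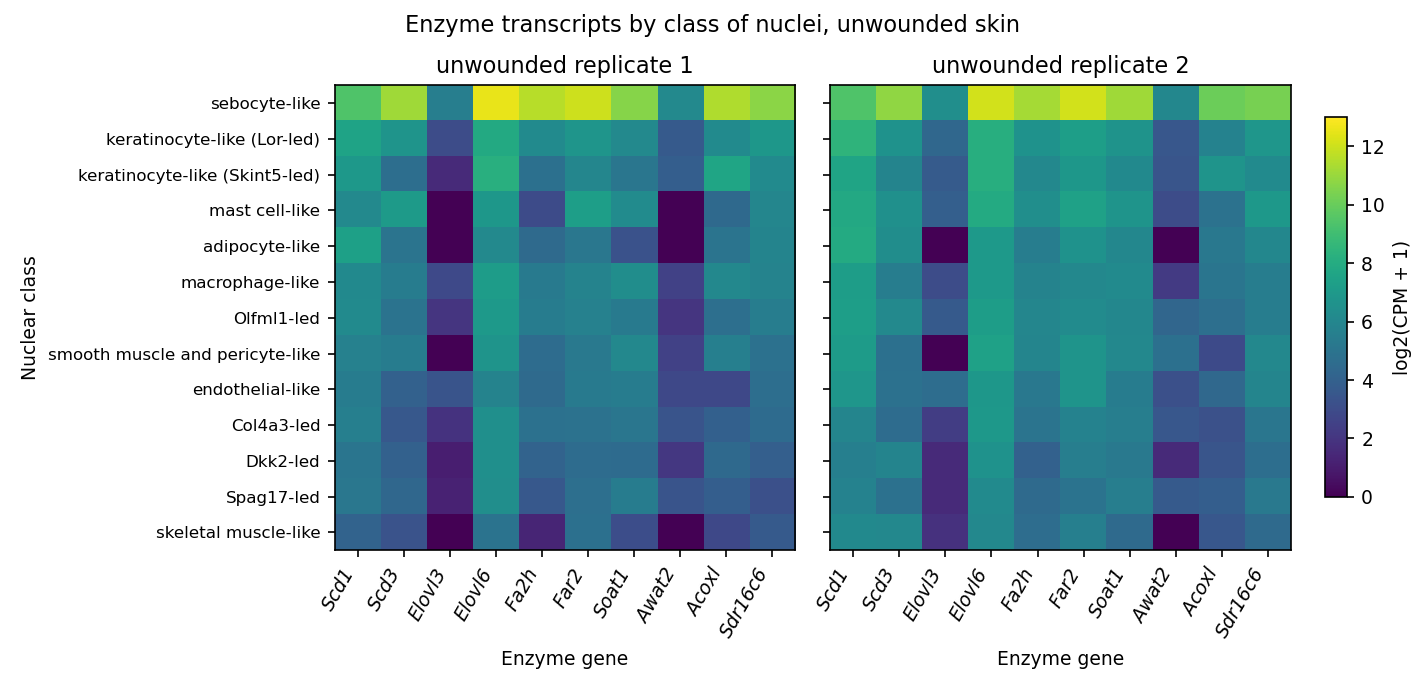
Level of each enzyme, as log2(CPM + 1) by colour, in 13 classes of nuclei (rows) of each unwounded library (panels). The sebocyte-like row is the brightest for every enzyme, and Scd1 differs least between that row and the keratinocyte-like and adipocyte-like rows.

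Scd1 was the least particular to sebocyte-like nuclei of the 8 abundant enzymes. It had 677 and 684 CPM there, against 186 and 355 CPM in Lor-led keratinocyte-like nuclei, a ratio of 3.64 and 1.93. Adipocyte-like nuclei had 166 and 244 CPM of Scd1. Only 22.6% (95% Wilson interval 19.6 to 26.0) and 12.4% (10.5 to 14.5) of the Scd1 UMIs lay in sebocyte-like nuclei, where Scd3 had 70.5% and 51.3% of its UMIs. Per 100 UMIs of Elovl6, Scd1 had 11.3 and 15.3 UMIs in sebocyte-like nuclei, 77.5 and 126 in Lor-led keratinocyte-like nuclei and 238 and 186 in adipocyte-like nuclei. The values for adipocyte-like nuclei rest on 16 and 29 UMIs of Elovl6.

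The 2 rarest enzymes were Elovl3, an elongase of saturated and monounsaturated chains, and Awat2. In sebocyte-like nuclei Elovl3 had 10 and 16 UMIs (46.4 and 84.2 CPM) and Awat2 had 15 and 12 UMIs (69.6 and 63.1 CPM). For Awat2 in replicate 2, the 95% counting interval of 32.6 to 110 CPM overlapped that of smooth muscle and pericyte-like nuclei, 7.21 to 67.7 CPM. For Elovl3 the interval overlapped that of endothelial-like nuclei in both libraries. It was 22.2 to 85.3 CPM against 1.90 to 27.0 CPM in replicate 1, and 48.1 to 137 CPM against 8.70 to 51.6 CPM in replicate 2. Per kb of gene the order in sebocyte-like nuclei was Sdr16c6 highest, at 80.5 and 59.7 CPM per kb, then Fa2h, Elovl6, Scd3 and Scd1 between 42.1 and 63.9, and Soat1 and Far2 between 30.7 and 45.3, with Soat1 of replicate 2 inside the range before it. Elovl3 followed at 12.2 and 22.2, Acoxl at 9.70 and 3.75 and Awat2 at 1.72 and 1.56 CPM per kb. The order of Fa2h, Elovl6, Scd3 and Scd1 differed between the 2 mice, with Scd1 lowest of them in replicate 1 and highest in replicate 2.

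Single sebocyte-like nuclei usually held several of the enzymes at once. At least 5 of the 10 were detected in 70 of 109 and 72 of 158 sebocyte-like nuclei (64.2% and 45.6%), against 5 of 6466 and 7 of 8843 other nuclei (0.0773% and 0.0792%). Median depth differed, at 1537 and 804 UMIs in sebocyte-like and 903 and 466 UMIs in other nuclei. With every nucleus thinned to 500 UMIs, at least 3 enzymes were seen in 85 of 107 and 88 of 118 sebocyte-like nuclei (79.4% and 74.6%), against 19 of 5960 and 22 of 4033 other nuclei (0.319% and 0.546%). Thinning left out nuclei of fewer UMIs, which is why the totals are smaller.

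The sebocyte-like nuclei were not uniform, and some enzymes varied together and others in opposite directions. Across nuclei thinned to 500 UMIs, Spearman's rho between Scd3 and Far2 was 0.46 and 0.47 in the 2 libraries (107 and 118 nuclei), and between Elovl6 and Acoxl 0.61 and 0.34. It was negative between Scd3 and Acoxl (−0.51 and −0.44) and between Scd3 and Elovl6 (−0.46 and −0.36). It was weaker between Far2 and Acoxl (−0.29 and −0.25) and between Far2 and Elovl6 (−0.33 and −0.16). Sdr16c6 was close to 0 with Elovl6 (−0.10 and −0.08) and had −0.11 and −0.22 with Acoxl. Scd3 and Acoxl had UMIs in 41 and 50 of 107 nuclei but in only 6 together, and in 50 and 36 of 118 nuclei but in 3 together. Sdr16c6 had positive values with Scd3 (0.28 and 0.38) and Far2 (0.42 and 0.28). Scd3 and Scd1, 2 desaturases of neighbouring genes, were not alike (−0.07 and −0.23). These are descriptions across nuclei of the same mouse, which share library and depth.

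**Figure D2:**
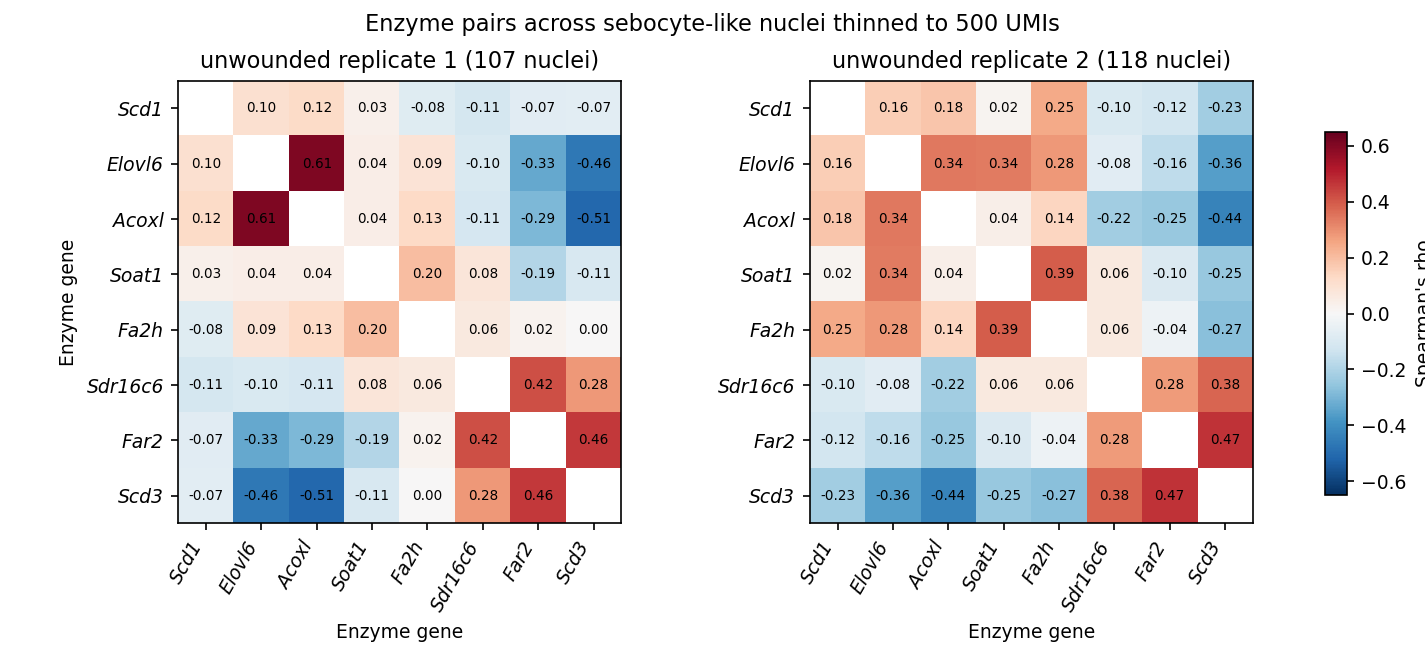
Spearman's rho between pairs of the 8 abundant enzymes across sebocyte-like nuclei thinned to 500 UMIs, for each unwounded library (panels), red for positive and blue for negative. Elovl6 with Acoxl and Scd3 with Far2 are red in both panels, and Scd3 with Acoxl and Elovl6 is blue in both.

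Clustering the sebocyte-like nuclei alone at a Leiden resolution of 0.5, again with the enzymes held out, gave a group led by the lipase gene Pnpla5 (48 and 67 nuclei) and a group led by the prolactin receptor gene Prlr (57 and 75 nuclei), each from both mice. The other group, of 4 and 16 nuclei, was led by Slc17a9 and carried the collagen transcript Col1a1 at 4246 CPM in replicate 2. In the Pnpla5-led group Scd3 stood at 5271 and 4593 CPM, against 300 and 258 CPM in the Prlr-led group. Far2 stood at 7187 and 8491 CPM in the Pnpla5-led group, against 2021 and 2260 CPM in the Prlr-led group. Sdr16c6 was also higher in the Pnpla5-led group, at 2689 and 2020 CPM against 1088 and 913 CPM.

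For Elovl6, Acoxl and Scd1 the order was the other way round. Elovl6 had 1737 and 1941 CPM in the Pnpla5-led group, against 9074 and 6605 CPM in the Prlr-led group. Acoxl had 250 and 158 CPM in the Pnpla5-led group, against 4594 and 1780 CPM in the Prlr-led group. Fa2h had 3165 and 2620 CPM in the Pnpla5-led group and 3239 and 2620 CPM in the Prlr-led group. That likeness was of the coarse groups: at a resolution of 1, Fa2h had 1744 and 745 CPM in nuclei led by Cers5, against 4543 and 4550 CPM in nuclei led by the cytochrome P450 gene Cyp4f39. Scd1 had 321 and 552 CPM in the Pnpla5-led group, against 942 and 849 CPM in the Prlr-led group.

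Other lipid genes split between the 2 groups as well. Elovl5, an elongase of polyunsaturated chains, and Elovl4, an elongase of very long ones, had 4652 and 4040 CPM and 4045 and 3583 CPM in the Pnpla5-led group, against 503 and 913 CPM and 479 and 471 CPM in the Prlr-led group. Cers5, a ceramide synthase, had 4224 and 3409 CPM, against 89.3 and 212 CPM. At a resolution of 1 it stood at 8000 and 8752 CPM in the nuclei it led and at 179 and 535 CPM in the Cyp4f39-led nuclei. The acyltransferase gene Dgat2 went the other way, at 11.9 and 15.8 CPM against 398 and 111 CPM. The melanocortin receptor gene Mc5r had 0 and 15.8 CPM against 64.9 and 92.3 CPM. Over all sebocyte-like nuclei Dgat2 had 50 and 14 UMIs and Mc5r 8 and 11, so the low values rest on very few UMIs. Pparg, a lipogenic nuclear receptor, was similar in both groups, at 1559 and 1278 CPM against 1842 and 1024 CPM. Median depth was 800 UMIs in the Pnpla5-led and 1283 UMIs in the Prlr-led group, and its part in the split was not tested. These further genes were chosen after their values were seen.

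**Figure D3:**
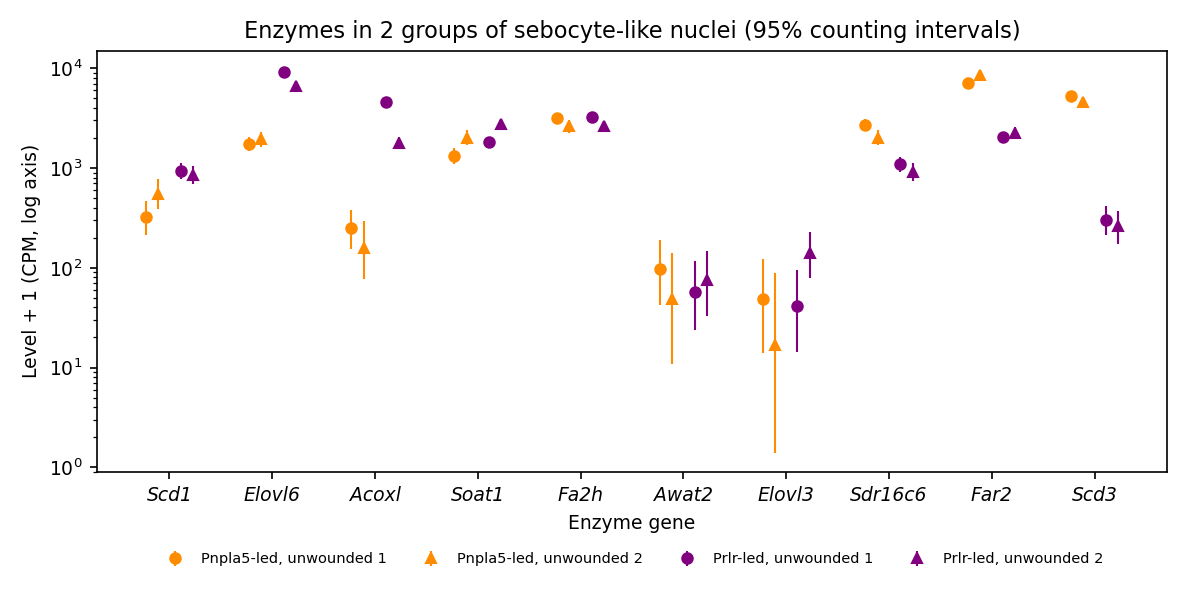
Level of each enzyme (CPM + 1, log axis) in Pnpla5-led and Prlr-led sebocyte-like nuclei of each unwounded library, with 95% Poisson intervals that cover counting error only. Scd3, Far2 and Sdr16c6 lie higher in the Pnpla5-led nuclei of both mice, Elovl6 and Acoxl lie higher in the Prlr-led nuclei, and the intervals of Fa2h overlap.

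Outside the 10 enzymes, 95 genes of 8 lists from lipid metabolism were placed by class. Of these, 47 (49.5%) were highest in sebocyte-like nuclei in both unwounded libraries, against 7.71% of the 10099 genes compared. Cholesterol synthesis had 14 of 15 genes highest there, among them Msmo1 (1238 and 1199 CPM), which acts late in the pathway. De novo fatty acid synthesis had 5 of 7, among them Acacb, an acetyl-CoA carboxylase (3720 and 3371 CPM). Elongation and desaturation had 7 of 16, peroxisomal oxidation 5 of 10, wax, sterol and glyceride esters 5 of 12, and lipogenic regulators 6 of 14. Sphingolipid synthesis had 3 of 13 and retinol enzymes 2 of 8. The sebocyte marker list shares some of these genes.

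The 10 genes whose level over the 13 classes was most like the mean of the enzymes, among 9571 compared, included Secisbp2l (r of 0.97 and 0.95), Elovl4, Msmo1, Tmem164, Acsl5, Cyp2b19, Hmgcs1 and Hsd17b12 (0.93 and 0.92). Tmem164 was among the most abundant transcripts of sebocyte-like nuclei, at 10895 and 6501 CPM. Of the enzymes themselves, Elovl6 was most like the mean (0.98 and 0.98) and Awat2 least (0.76 and 0.64).

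In wounded skin the enzyme transcripts were mostly fewer, and the levels left were 0.402 to 3.69 times the length-expected level. Summed over all nuclei of a library and fitted across all genes with edgeR's quasi-likelihood test, 8 of the 10 enzymes were lower in wounded skin at an adjusted p under 0.05, 1 was higher and 1 did not pass. Of the 20930 genes tested, 37.3% were called lower and 46.9% higher, so a call by itself was common. The median log2 fold change was −2.003 over the enzymes, beside 0.39 over all genes tested. Fewer sebocyte nuclei, less RNA in each and the length-scaled counts of the wounded libraries cannot be told apart in these sums. Added over all genes, length-expected levels came to 68.4% and 63.4% of UMIs in the wounded libraries, against 0.918% and 1.29% in the unwounded ones. Of the kept wounded nuclei, 74.8% and 60.7% had no Malat1 UMI. Fitted values include a scaling between libraries (TMM) that places them below the ratio of CPM.

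**Figure D4:**
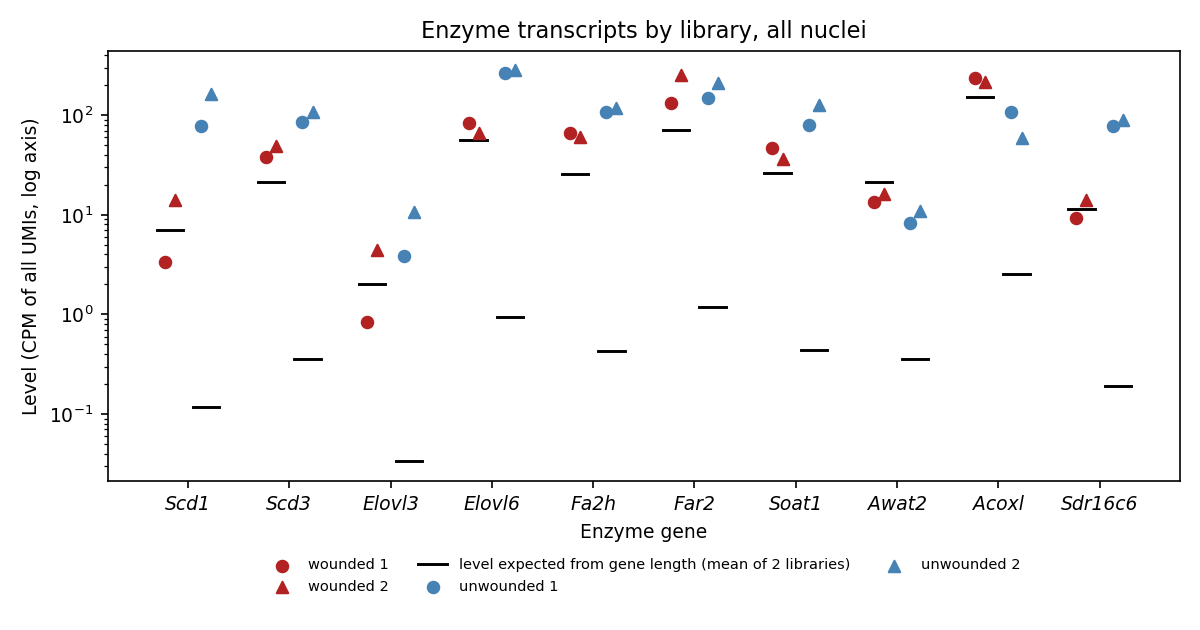
CPM of each enzyme over all nuclei of each library (log axis), wounded in red and unwounded in blue, with black bars at the level expected from gene length (mean of the 2 libraries). Relative to the length-expected level of their own library, wounded points lie at 0.402 to 3.69 times and unwounded points at 19.9 times or more.

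The desaturase Scd1 fell most, with 3.36 and 14.1 CPM in wounded skin, against 77.9 and 162 CPM in unwounded skin. Both wounded libraries lay below both unwounded ones, as for 30.8% of all genes tested. The log2 fold change of Scd1 was −4.52 ± 0.51 (SE, edgeR adjusted p = 1.24e-05). Both groups had 2 libraries. Wounded levels were 0.455 and 2.06 times the length-expected level, from 4 and 19 UMIs. Scd3 had 37.8 and 49.6 CPM in wounded skin, against 85.1 and 107 CPM in unwounded skin (log2 fold change −1.91 ± 0.21, edgeR adjusted p = 8.95e-06), and 1.69 and 2.39 times the length-expected level. Scd1 and Scd3 share 3.68% and 4.50% of the 60-base words of their transcripts with other genes, chiefly with each other, so a small part of their counts could be exchanged.

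Sdr16c6 fell next furthest, with 9.25 and 14.1 CPM in wounded skin, against 78.4 and 90.2 CPM in unwounded skin (−3.62 ± 0.24, edgeR adjusted p = 3.18e-07). Its wounded levels were 0.778 and 1.28 times the length-expected level. Of the elongases, Elovl6 had 83.2 and 65.9 CPM in wounded skin, against 264 and 282 CPM in unwounded skin (−2.67 ± 0.16, edgeR adjusted p = 1.60e-07). Its wounded levels were 1.43 and 1.22 times the length-expected level. For both genes every wounded library lay below every unwounded one, as for 30.8% of all genes tested. Elovl3 had 0.841 and 4.44 CPM in wounded skin, from 1 and 6 UMIs, against 3.87 and 10.7 CPM in unwounded skin. Those groups overlapped, and its fall (−2.15 ± 0.79, edgeR adjusted p = 0.0258) was lost without wounded replicate 1 (adjusted p = 0.0904) and with DESeq2 (adjusted p = 0.0745).

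Fa2h had 66.4 and 60.7 CPM in wounded skin, against 107 and 119 CPM in unwounded skin (−1.62 ± 0.16, edgeR adjusted p = 4.94e-06). At 2.48 and 2.45 times the length-expected level, it was the only enzyme above 2-fold in both wounded libraries. Soat1 had 47.1 and 36.3 CPM in wounded skin, against 79.2 and 125 CPM in unwounded skin (−2.09 ± 0.27, edgeR adjusted p = 3.05e-05). For Fa2h and Soat1 both wounded libraries lay below both unwounded ones, as for 30.8% of all genes tested. Awat2 had 13.5 and 16.3 CPM in wounded skin, 0.604 and 0.789 times the length-expected level, against 8.34 and 10.96 CPM in unwounded skin. Its fitted change did not pass (−0.15 ± 0.33, edgeR adjusted p = 0.679), and its sign depended on the scaling.

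Acoxl was the 1 enzyme called higher, with 235 and 218 CPM in wounded skin, against 107 and 58.7 CPM in unwounded skin (0.67 ± 0.22, edgeR adjusted p = 0.0138). It is the longest of the 10 genes, at 285 kb, and its wounded levels were both 1.50 times the length-expected level. With the length-expected counts subtracted from the wounded libraries its call was lost (log2 fold change 0.39, adjusted p = 0.288). Over the 10 enzymes, fold change followed gene length with a Pearson r of 0.60 on the log2 scale, where over 20917 genes r was 0.07. Genes are not independent replicates, and both values are descriptions. The enzymes were at a median of 1.46 and 1.78 times the length-expected level in the wounded libraries, and all genes tested were at a median of 1.34 and 1.42 times.

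**Figure D5:**
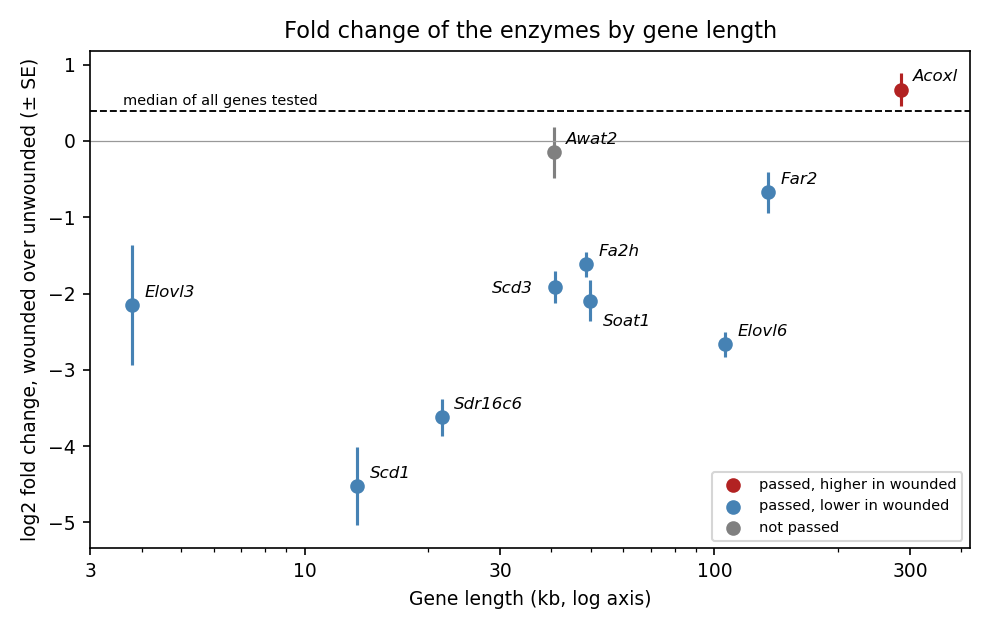
Log2 fold change of each enzyme, wounded over unwounded skin (edgeR, bars are 1 SE), against gene length on a log axis. Acoxl, the longest gene, lies above the dashed median of all genes tested (0.39), and Scd1 and Sdr16c6 lie lowest.

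Far2 behaved unlike the other enzymes. It had 134 and 255 CPM in wounded skin, against 149 and 210 CPM in unwounded skin, and the groups overlapped. The fitted change passed (−0.67 ± 0.27, edgeR adjusted p = 0.0381) but had the opposite sign, 0.14, when libraries were scaled by their totals alone (adjusted p = 0.592). Without wounded replicate 1 it was −0.09 (adjusted p = 0.684). At 1.79 and 3.69 times the length-expected level, wounded replicate 2 had the highest ratio of any enzyme in the wounded libraries.

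A few wounded barcodes held much of this Far2. In wounded replicate 2, 15 of 3706 nuclei had at least 5 Far2 UMIs and together held 188 of 344 (54.7%), and in wounded replicate 1, 2 of 2297 nuclei held 32 of 159 (20.1%). Without them the level was 1.43 times the length-expected one in wounded replicate 1 and 1.68 times in wounded replicate 2. The highest had 26 Far2 UMIs among 340 UMIs in all, and another had 25 Far2 and 6 Scd3 UMIs among 277. Scd1, Elovl6, Fa2h and Soat1 had no more than 3 UMIs in any wounded nucleus. Of the 4 wounded nuclei in the sebocyte-like class, all from replicate 2, 3 were among these barcodes, with 17, 25 and 26 Far2 UMIs.

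When the wounded nuclei were clustered alone, the cluster of highest Far2 held 30 and 81 nuclei, and its leading non-enzyme gene was the monoglyceride lipase gene Mgll, which was also among the 10 leading non-enzyme genes of the sebocyte-like class. Far2 reached 2069 and 4072 CPM there, 27.8 and 59.0 times the length-expected level, from 22 and 110 UMIs. The cluster was picked by its Far2, so a high Far2 level in it was set by that choice. In wounded replicate 1, 1 nucleus alone had 22 Far2 UMIs, so the value of that library may rest on 1 nucleus. Scd3 had 1 and 10 UMIs (94.0 and 370.2 CPM, 4.19 and 17.8 times the length-expected level). Elovl6 had 4 and 3 UMIs (6.44 and 2.05 times). Acoxl had 3 and 7 (1.80 and 1.78 times) and Awat2 1 and 1 (4.22 and 1.79 times). In wounded replicate 2, Fa2h had 4 UMIs (5.97 times) and Scd1 2 (10.8 times), with none in wounded replicate 1. Sdr16c6, Soat1 and Elovl3 had none in either library, with Poisson upper limits of 347 and 137 CPM. Elovl3 had 46.4 and 84.2 CPM in unwounded sebocyte-like nuclei, below those limits, so its absence cannot be read. The 12 sebocyte markers summed to 1.74 and 2.47 times their length-expected level in that cluster, from 6 and 20 UMIs, with 4 of the 12 detected. The macrophage markers summed to 2.89 and 2.30 times, from 8 and 15 UMIs, with 4 and 5 of 7 detected. The adipocyte markers summed to 2.46 and 2.09 times, from 2 and 4 UMIs, with 1 of 10 detected. All of these ratios rest on few UMIs. That cluster was not given a cell type name. In the clustering of all libraries, 82 of its nuclei lay in an unnamed class led by Trem3 and 2 in the sebocyte-like class. In keratinocyte-like wounded nuclei, led by the desmosome gene Dsg3, Far2 had 3 and 57 UMIs (79.8 and 669 CPM), so its higher level there was in replicate 2 only.

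Most of the other lipid genes were lower in wounded skin. Of the 95 genes, 65 were lower in wounded skin, 19 higher and 11 did not pass, with a median log2 fold change of −1.46. Of all genes tested, 37.3% were called lower and 46.9% higher, with a median of 0.39. Cholesterol synthesis had 14 of 15 lower and none higher (1 gene did not pass): Hmgcs1, early in the pathway, had 10.9 and 8.14 CPM in wounded skin, against 53.3 and 42.2 CPM in unwounded skin (−3.11 ± 0.26). De novo fatty acid synthesis had 7 of 7 lower. Fasn, the fatty acid synthase, had 2.52 and 3.70 CPM in wounded skin, against 29.1 and 39.2 CPM in unwounded skin (−4.21 ± 0.39), and the wounded values were 0.245 and 0.388 times the length-expected level. Acacb had 103 and 95.5 CPM in wounded skin, against 392 and 377 CPM in unwounded skin (−2.74 ± 0.14).

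The next 2 lists also stand beside 37.3% of all genes tested called lower and 46.9% called higher. Among regulators, 11 of 14 were lower and 2 higher. Srebf1, the lipogenic transcription factor, had 9.25 and 12.6 CPM in wounded skin, against 41.0 and 47.3 CPM in unwounded skin (−2.78 ± 0.26). Peroxisomal oxidation had 7 of 10 lower and 1 higher. Abcd3, a peroxisomal membrane transporter, had 37.0 and 45.9 CPM in wounded skin, against 124 and 127 CPM in unwounded skin (−2.38 ± 0.17).

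The other 4 lists held the remaining rises, in shares below the 46.9% of all genes called higher. Their counts of lower genes stand beside 37.3% of all genes called lower. Elongation and desaturation had 8 of 16 lower and 5 higher, ester synthesis 6 of 12 lower and 3 higher, sphingolipids 8 of 13 lower and 5 higher, and retinol enzymes 4 of 8 lower and 3 higher. Cers3, an epidermal ceramide synthase, had 97.5 and 79.2 CPM in wounded skin, against 4.83 and 6.95 CPM in unwounded skin (3.13 ± 0.25), at 2.21 and 1.94 times the length-expected level. Hacd1, a dehydratase of elongation, had 164 and 130 CPM in wounded skin, against 19.2 and 19.8 CPM in unwounded skin (2.13 ± 0.18), at 1.45 and 1.24 times that level. Far1, a fatty acyl-CoA reductase like Far2, had 37.0 and 30.4 CPM in wounded skin, against 112 and 130 CPM in unwounded skin (−2.64 ± 0.19), at 1.17 and 1.03 times that level. Sdr16c5, the relative of Sdr16c6, had 8.41 and 11.8 CPM in wounded skin, against 37.8 and 52.5 CPM in unwounded skin (−2.93 ± 0.31). Ugt8a, a galactosyltransferase of ceramide, had 49.6 and 42.2 CPM in wounded skin, against 0.242 and 1.24 CPM in unwounded skin, at 1.23 and 1.13 times that level. The sebocyte markers together stood at 1.68 and 1.75 times their length-expected level in wounded skin and at 140 and 106 times in unwounded skin. Their part in the fall of the enzymes was not tested.

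No class of nuclei held at least 50 nuclei in each of the 4 libraries, so the enzymes could not be compared between wounded and unwounded skin within sebocyte-like nuclei.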

How the data were processed

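Single-nucleus RNA libraries from 2 wounded and 2 unwounded mice were used. What the authors deposited were unnormalised UMI counts by gene and barcode. Per the submitters' processing notes, Cell Ranger 5.0.1 and the build GRCm38 were used to make them. The handling of introns and of strand is not given in the sources used here. Genes overlapping a partner on the other strand (Scd3, Far2, Elovl3, Elovl6 and Awat2) therefore could share reads with it. Gene coordinates and lengths came from GENCODE vM21, in which 32235 of the 32285 genes matched.

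Nuclei were kept at 200 or more genes with mitochondrial counts of 5% or less. Scrublet's automatic threshold marked 11 (0.461%) and 0 wounded nuclei and 0 unwounded nuclei and so had not worked, and the highest scores were removed at a rate growing with the number of barcodes (88 and 624 wounded, 388 and 769 unwounded nuclei). Counts were summed over the nuclei of each library and fitted with edgeR 4.0.16 (R 4.3.3; filterByExpr, TMM factors of 1.33 and 1.32 in wounded and 0.782 and 0.731 in unwounded libraries, glmQLFit, glmQLFTest, Benjamini-Hochberg over all genes tested, threshold 0.05). Standard errors are the fold change divided by the root of F. The fit was tested on simulated data in which few genes changed and both groups otherwise shared 1 expression profile. Those data held no length-scaled counts particular to the wounded group, so the test does not cover that feature of these libraries. The exact permutation test was not used with 2 against 2 libraries.

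Nuclei were clustered with scanpy 1.11.5 (Leiden resolution 1) on 1994 variable genes, with the enzymes held out. A class took a name when at least 3 and at least 60% of a type's markers lay at least 2-fold above the other nuclei, with at least 1 marker among its 10 leading genes or all markers 2-fold higher. This scoring was revised after the clusters were seen. Poisson and Wilson intervals and floors cover counting error only. The enzymes and all lists were chosen with earlier results of these data known. Named are the 10 enzymes, up to 4 genes of smallest p per list, and the 10 genes most alike over classes, of which some are not reported here; Pnpla5, Prlr, Slc17a9, Cyp4f39, Mgll, Adipoq, Lep, Retn, Plin4, Pnpla2, Col1a1, Elovl5, Elovl4, Cers5, Dgat2, Mc5r and Pparg are named as leading genes, markers or list members. Alternatives covered scaling, DESeq2 1.42.0, filters, single libraries, doublets, nucleus filters, length-expected counts, thinning and cluster resolution.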

Additional observations from a re-analysis of the deposited data

How the results depend on the processing

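The count of 8 enzymes lower in wounded skin ranged from 6 to 8 over the fits tried, and 6 to 8 when 1 library was left out. The count of 1 higher stayed at 1 except with length-expected counts subtracted, where it was 0. Calls lost from the lower count were of Elovl3 and Far2. Far2 was positive with library totals (0.14), with all deposited barcodes (0.31) and in nuclei with a Malat1 UMI (0.03). Awat2 was positive with RLE scaling (0.09), DESeq2 (0.00), library totals (0.66), at least 400 genes per nucleus (0.03), Malat1 nuclei (0.24) and thinning to the smallest library (0.76). When 1 library was left out Awat2 ranged from −0.42 to 0.16, and with subtraction it was −8.33 and passed. Wounded Awat2 levels were 0.604 and 0.789 times the length-expected level, and subtraction was cut off at 0, so it left no wounded Awat2 counts. The cause of the other changes of sign was not tested. Acoxl lost its call with subtraction.

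Of the 95 lipid genes, 10 were called higher with subtraction, against 19. Over all genes, 5159 were called lower with library totals and 5082 with thinning, against 7810, and 5846 were called higher in Malat1 nuclei and 5082 with subtraction, against 9819. The share of calls that were higher moved with the scaling, so 11638 were higher beside 5159 lower with library totals, against 9819 beside 7810. The median log2 fold change over all genes was 0.39 with TMM, 0.63 with RLE scaling and 1.19 with library totals. Scaling by library totals was chosen after seeing the data.

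The 4 libraries carry replicate numbers, but nothing ties mouse 1 of one group to mouse 1 of the other. Deviations of same-numbered libraries correlated at 0.0365 over 20930 genes. A fit with the replicate block gave 8 enzymes lower and 1 higher, and 65 lipid genes lower and 20 higher, so it changed no call of an enzyme.

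The share of enzyme UMIs in sebocyte-like nuclei of the unwounded libraries, 53.98% pooled, was 58.36% with the enzymes among the clustering genes and 47.5% to 63.21% when 1 unwounded library was left out. It was 53.98% and 54.20% at Leiden resolutions 0.5 and 2, and 54.51% with doublets kept. The number of unwounded sebocyte-like nuclei moved more: 267 became 608 with doublets kept and 419 with the enzymes among the clustering genes. The comparison within sebocyte-like nuclei, with its scaling, left-out-library and block alternatives, was not run, because the wounded libraries held 0 and 4 such nuclei. Medians over the length-expected level of 1.46 and 1.78 were 1.49 and 1.77 with the density of nearly silent protein-coding genes. Resolution of the groups within sebocyte-like nuclei, and wounded nuclei clustered alone, were added after seeing the data. With 4 to 19 UMIs of Scd1 per wounded library, depth limits the short enzymes most.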
